A study of Homo sapiens with 3 samples.

Results

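The genes described here make the machinery that copies DNA and the transcription factors that switch it on as a cell passes from G1 into S phase. They are 37 genes, picked by name from the expression table for their known roles: E2F factors, origin licensing factors, the MCM and GINS families, polymerase alpha-primase, the sliding clamp and its loader, enzymes of nucleotide supply, and factors that rebuild chromatin behind the fork. The table lists 16662 genes, and 37 of 37 members are in it. The members and 13879 genes in all had a mean of at least 1 CPM (reads of a gene scaled to a common library total) over the libraries. RNA was sequenced from H1975, a cell line established from a human lung adenocarcinoma with mutant EGFR, transfected with a small interfering RNA (siRNA). There was 1 library with siHHLA3-1 and 1 with siHHLA3-3, which are separate siRNAs against HHLA3, and 1 with the control siRNA siNC. In each group the siRNA was added to cells at about 70% confluency, serum was withheld for 6 h, and RNA was taken after 24 h more with 10% serum. With 1 library per group no difference has a replicate check and no p-value is given, and since the labels put each library in a batch of its own, siRNA and batch cannot be told apart.

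Replication is licensed in G1, when the origin recognition complex, CDC6 and CDT1 load the MCM helicase onto DNA, and it starts in S phase, when CDC45 and the GINS complex join the helicase and polymerases follow. The genes for most of these proteins are held back by the RB family in resting cells and are transcribed when E2F factors are released late in G1, so their RNAs usually move together as cells enter the cycle. In tumours their summed level is widely used as a measure of proliferation. In RNA from a whole culture, a smaller share of cells in late G1 and S phase and less of these RNAs per cell cannot be told apart.

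The targeted gene was lower with both siRNAs: HHLA3 had 1.55 CPM with siHHLA3-1, 0.735 CPM with siHHLA3-3 and 5.99 CPM with siNC, from 55 counts with siHHLA3-1, 20 with siHHLA3-3 and 192 with siNC. Library totals were 35069930 reads with siHHLA3-1, 26950852 with siHHLA3-3 and 32813003 with siNC, and members had between 206 and 19786 counts in a library. Of the epithelial markers chosen for the line, 6 of 6 were listed, each at 297 CPM or more in every library. Of 5 blood cell markers 2 were listed, summing to 12.7 CPM with siHHLA3-1, 10.9 CPM with siHHLA3-3 and 13.3 CPM with siNC, while PTPRC, CD3E and HBB were not among the rows used. Of 5 markers of fibroblasts and endothelium the 1 listed was COL1A1, at 24.5 CPM with siHHLA3-1, 10.9 CPM with siHHLA3-3 and 11.3 CPM with siNC. COL1A1 was therefore highest in the library in which most members were lowest, and its part in the results was not tested.

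Replication genes were lower than siNC with one siRNA and, for most of them, slightly higher than siNC with the other. Together the 37 genes took 0.307% of all reads with siHHLA3-1 (95% binomial interval 0.305% to 0.309%), 0.493% with siHHLA3-3 (0.490% to 0.495%) and 0.426% with siNC (0.423% to 0.428%). These and all other intervals cover counting error alone. Ratios are given as log2 of (CPM + 1) over (CPM + 1) after scaling the libraries with TMM factors, which set the bulk of genes to a common level, and printed folds as ratios of CPM. Calls of 1.5-fold and 2-fold rest on the log2 ratio. With siHHLA3-1, 37 of 37 members were below siNC, where 51.8% of all genes were, and their median log2 ratio was −0.52 against −0.01 for all genes. With siHHLA3-3, 27 members were above siNC, where 48.5% of genes were, and 10 below it, where 51.5% were. Their median log2 ratio was 0.17 against −0.01 for all genes. The 27 members above siNC with siHHLA3-3 were thus on opposite sides of siNC with the siRNAs, a placing that 18.1% of all genes had. The list was proposed with this opposite direction already known, so the counts describe it and are no independent evidence.

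**Figure D1:**
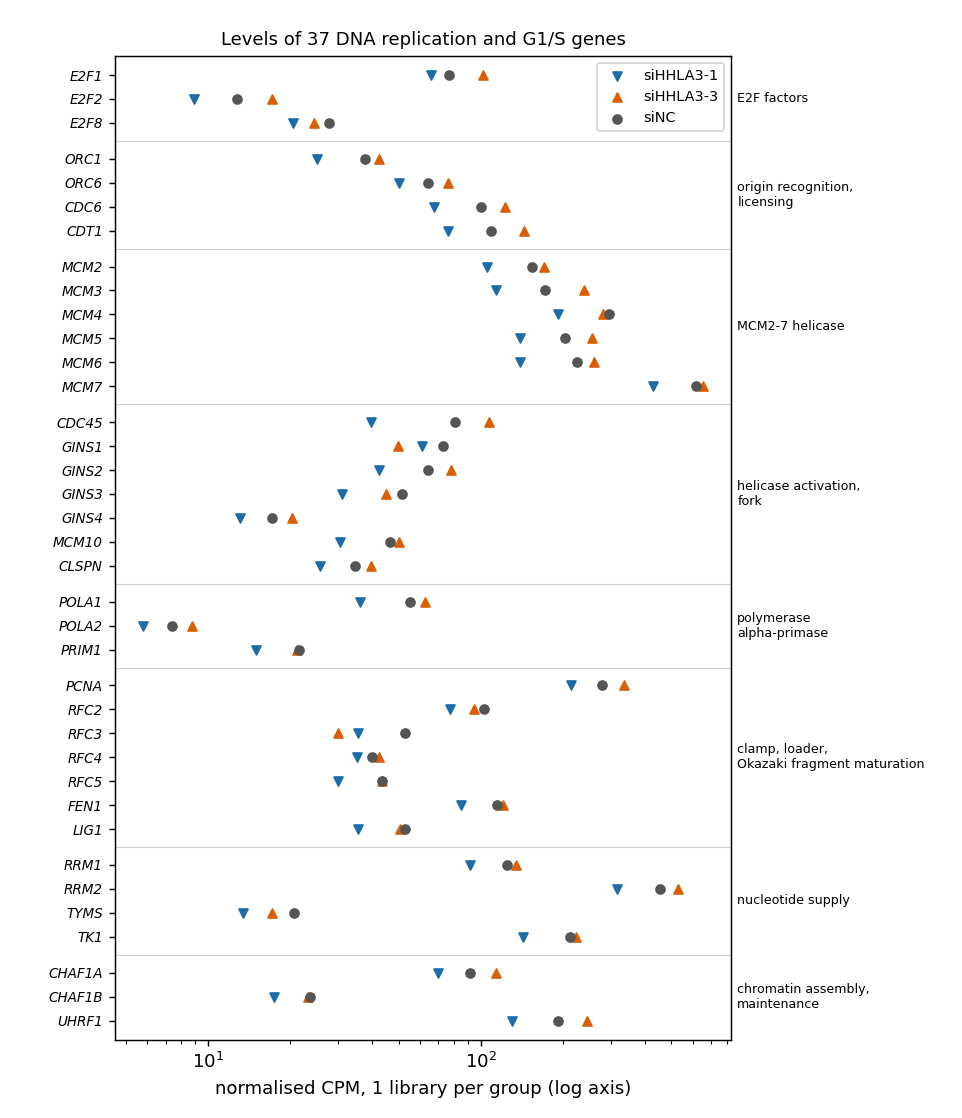
Normalised CPM (log axis) of each of the 37 genes with siHHLA3-1 (blue), siHHLA3-3 (orange) and siNC (grey), 1 library each, grouped by role. The siHHLA3-1 point is the lowest of the 3 in 35 genes, as it is in 35.5% of all genes. The siHHLA3-3 point is the highest in 27, as it is in 33% of all genes.

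The size of the differences was moderate. With siHHLA3-1, log2 ratios to siNC ran from −1.01 for CDC45 to −0.18 for RFC4, and 9 members were at least 1.5-fold lower, where 3.34% of all genes were. These were MCM3, MCM4, MCM6, CDC45, GINS2, GINS3, MCM10, POLA1 and TYMS. The members' median lies close to this line, and the count of 9 became 5 with DESeq2 size factors and 3 with library totals, TPM or FPKM (TPM and FPKM are levels scaled by transcript length). CDC45 alone was at least 2-fold lower, where 0.382% of genes were, and none was under those same settings. The counting interval of the ratio lay below 1 for 37 members, where it did so for 32.6% of genes. With siHHLA3-3, log2 ratios to siNC ran from −0.80 for RFC3 to 0.47 for MCM3. No member was at least 1.5-fold higher, where 3.65% of genes were, and RFC3 alone was at least 1.5-fold lower, where 5.57% were. The counting interval lay above 1 for 23 members, where it did so for 27.6% of genes, and below 1 for 7 members, where it did so for 30.6%. Those 7 were E2F8, MCM4, GINS1, GINS3, RFC2, RFC3 and TYMS.

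**Figure D2:**
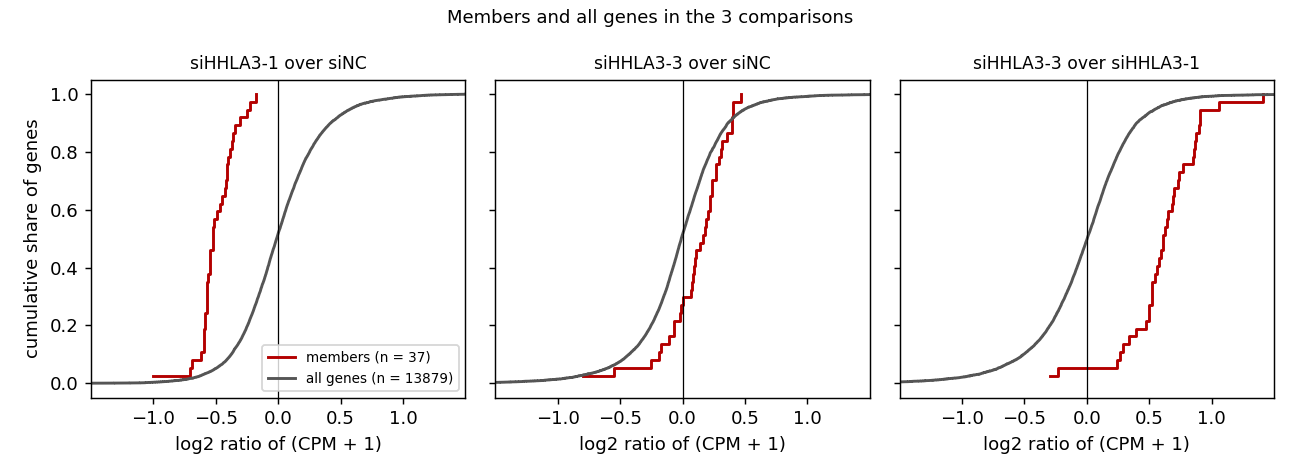
Cumulative share of the 37 members (red) and of the 13879 genes that passed the filter (grey) against the log2 ratio of (CPM + 1), in each comparison. The members' median is −0.52 with siHHLA3-1 over siNC, 0.17 with siHHLA3-3 over siNC and 0.61 with siHHLA3-3 over siHHLA3-1, while that of all genes is within 0.02 of 0 in each panel.

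Among the E2F factors, E2F1 and E2F2, activators that drive transcription of replication genes, stood apart from E2F8, a repressor that shuts the same genes down later in the cycle. E2F1 had 65.5 CPM with siHHLA3-1, 102 CPM with siHHLA3-3 and 76.9 CPM with siNC. E2F2 was the scarcer of these activators, at 8.93 CPM with siHHLA3-1, 17.2 CPM with siHHLA3-3 and 12.7 CPM with siNC. Both were below siNC with siHHLA3-1 and above it with siHHLA3-3, and E2F1 was 1.32-fold higher (95% counting interval 1.25 to 1.40) than siNC with siHHLA3-3. E2F8 had 20.5 CPM with siHHLA3-1, 24.5 CPM with siHHLA3-3 and 27.7 CPM with siNC, so it was below siNC with both siRNAs, at −0.41 with siHHLA3-1 and −0.17 with siHHLA3-3 on the log2 scale. Per transcript length E2F1 was the most abundant of the 3, at 86.8 TPM with siHHLA3-1, 135 TPM with siHHLA3-3 and 97.7 TPM with siNC. The split described here is that of these 3 members alone. Log2 ratios to siNC of E2F3 to E2F7, which are not members, ran from −0.16 (E2F4) to 0.25 (E2F5) with siHHLA3-1. With siHHLA3-3 they ran from 0.04 (E2F3) to 0.49 (E2F6).

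The promoters of the members were searched for the letters that E2F factors bind, since that is the regulation the genes are known to share. The members were picked for known roles that go with this regulation, so the shares describe the list and are no independent evidence. RefSeq promoters of build GRCh38.p14, from 250 bases before to 50 after each start, were matched for 33 of the 37 members; MCM4, MCM5, GINS4 and E2F8 were not among them. The E2F core was searched on both strands as TTTCCCGC, TTTCGCGC, TTTGCCGC or TTTGGCGC, and matches on opposite strands can overlap. It was found in 19 of 33 members (57.6%), in 6.64% of the 10281 listed genes with a promoter searched and in 3.99% of all 27305 genes searched. A gene with several starts counted if any of them had a match. The CCAAT box, the binding site of the factor NF-Y, is likewise frequent in promoters of cell cycle genes and was searched on both strands. It was found in 21 of 33 members (63.6%), in 42.9% of listed genes and in 39.7% of all genes searched. Both motifs were in 11 members (33.3%) and in 3.30% of listed genes.
The 120 bases before the start are shown for 6 members, with matches in capitals: E2F1, which carries E2F cores in its own promoter, 3 genes of origin licensing, helicase and clamp, CDC45, which had the lowest ratio with siHHLA3-1, and RFC3, which had the lowest with siHHLA3-3.
E2F1, chr20:33686386-33686505, minus strand: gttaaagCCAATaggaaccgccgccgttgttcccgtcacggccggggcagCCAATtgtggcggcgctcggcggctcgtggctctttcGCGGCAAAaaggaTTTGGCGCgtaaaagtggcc
CDT1, chr16:88803669-88803788, plus strand: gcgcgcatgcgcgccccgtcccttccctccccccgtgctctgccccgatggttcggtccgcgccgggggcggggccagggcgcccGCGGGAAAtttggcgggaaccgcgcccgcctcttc
MCM6, chr2:135876444-135876563, minus strand: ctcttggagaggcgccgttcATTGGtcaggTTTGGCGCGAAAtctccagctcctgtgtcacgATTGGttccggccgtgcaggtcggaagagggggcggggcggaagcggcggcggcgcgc
PCNA, chr20:5126623-5126742, minus strand: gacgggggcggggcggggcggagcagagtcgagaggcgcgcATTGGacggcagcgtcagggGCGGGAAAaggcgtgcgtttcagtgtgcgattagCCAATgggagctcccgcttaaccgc
CDC45, chr22:19479800-19479919, plus strand: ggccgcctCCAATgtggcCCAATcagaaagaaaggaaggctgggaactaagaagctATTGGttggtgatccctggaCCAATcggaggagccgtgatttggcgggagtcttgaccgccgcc
RFC3, chr13:33818029-33818148, plus strand: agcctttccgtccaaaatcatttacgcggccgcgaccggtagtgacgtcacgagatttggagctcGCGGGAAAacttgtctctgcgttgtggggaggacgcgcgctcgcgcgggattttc
The E2F1 stretch holds 2 E2F cores and 2 CCAAT boxes, and the MCM6 stretch holds 2 overlapping E2F cores, read as 1 run of capitals, and 2 CCAAT boxes. CDT1 and RFC3 have 1 E2F core each, PCNA has 1 beside 2 CCAAT boxes, and CDC45 has none of the 4 forms in these bases but 4 CCAAT boxes. The CDC45 and CDT1 stretches also hold tttggcggga, which is close to the form TTTGGCGC but was not counted. PCNA and CDC45 have further listed starts, and for each the start with the most matches is shown. The other listed start of PCNA has no E2F core. A match is a run of letters and not a shown binding site, and a member without the 4 forms is not shown to lack E2F sites. Members with an E2F core (19) had a median log2 ratio of −0.55 with siHHLA3-1 over siNC and 0.21 with siHHLA3-3 over siNC. Those without any of the 4 forms (14), CDC45 among them, had −0.47 with siHHLA3-1 and 0.10 with siHHLA3-3. The ranges overlapped. With siHHLA3-1 they were −0.71 to −0.23 with a core and −1.01 to −0.18 without. With siHHLA3-3 they were −0.80 to 0.47 with a core and −0.11 to 0.40 without. The difference was not tested.

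Origin recognition and licensing genes were below siNC with siHHLA3-1 and above it with siHHLA3-3 in 4 of 4 cases. Of all genes, 18.1% had this placing. ORC1, the subunit of the origin recognition complex whose level swings through the cycle, had 25.1 CPM with siHHLA3-1, 42.5 CPM with siHHLA3-3 and 37.8 CPM with siNC. ORC6, a further subunit of that complex, had 50.3 CPM with siHHLA3-1, 75.7 CPM with siHHLA3-3 and 64.3 CPM with siNC. Both subunits were lowest with siHHLA3-1 and highest with siHHLA3-3. CDC6, the ATPase that recruits the helicase to origins, had 67.4 CPM with siHHLA3-1, 123 CPM with siHHLA3-3 and 100.2 CPM with siNC. CDT1, which delivers the helicase and is destroyed once S phase begins, had 76.03 CPM with siHHLA3-1, 144 CPM with siHHLA3-3 and 109 CPM with siNC. The loading factors had the same order as the subunits, and CDT1 had the widest spread of the 4, being 1.89-fold higher (95% counting interval 1.80 to 1.99) with siHHLA3-3 than with siHHLA3-1. The median log2 ratio to siNC over these 4 genes was −0.54 with siHHLA3-1 and 0.26 with siHHLA3-3.

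The MCM helicase, a ring of MCM2 to MCM7 that unwinds the template, took 0.113% of all reads with siHHLA3-1, 0.188% with siHHLA3-3 and 0.163% with siNC. With siHHLA3-1 each of its 6 subunits was below siNC, where 51.8% of all genes were. MCM2 had 106 CPM with siHHLA3-1, 171 CPM with siHHLA3-3 and 155 CPM with siNC. MCM3 had 114 CPM with siHHLA3-1, 239 CPM with siHHLA3-3 and 172 CPM with siNC. MCM4 had 192 CPM with siHHLA3-1, 281 CPM with siHHLA3-3 and 295 CPM with siNC. With siHHLA3-3, MCM2 sat slightly above siNC, MCM3 further above it, and MCM4 slightly below. MCM5 had 139.8 CPM with siHHLA3-1, 255 CPM with siHHLA3-3 and 205 CPM with siNC. MCM6 had 139 CPM with siHHLA3-1, 260.4 CPM with siHHLA3-3 and 226 CPM with siNC. MCM7, the most abundant member by reads, had 429 CPM with siHHLA3-1, 655 CPM with siHHLA3-3 and 617 CPM with siNC. With siHHLA3-1 the 6 log2 ratios to siNC lay between −0.69 (MCM6) and −0.52 (MCM7), and MCM6 was 1.62-fold lower (95% counting interval 1.56 to 1.68) than with siNC. With siHHLA3-3 they spread from −0.07 (MCM4) to 0.47 (MCM3), and MCM3 was 1.39-fold higher (95% counting interval 1.34 to 1.44) than with siNC. The ratio of MCM3 to MCM4 in TPM, which corrects for transcript length, was 1.14 with siHHLA3-1, 1.63 with siHHLA3-3 and 1.11 with siNC. Although the proteins form a ring with equal parts, their RNAs were not equal in any library, the most abundant (MCM7) being 5.09 times the least abundant (MCM5) in TPM with siHHLA3-1, 4.25 times with siHHLA3-3 and 5.00 times with siNC. MCM7 shares 392 exon bases with AP4M1 on the opposite strand, and AP4M1 had no more than 13.7 CPM in any library. Whether reads were counted by strand is not given, so the MCM7 counts carry that uncertainty.

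**Figure D3:**
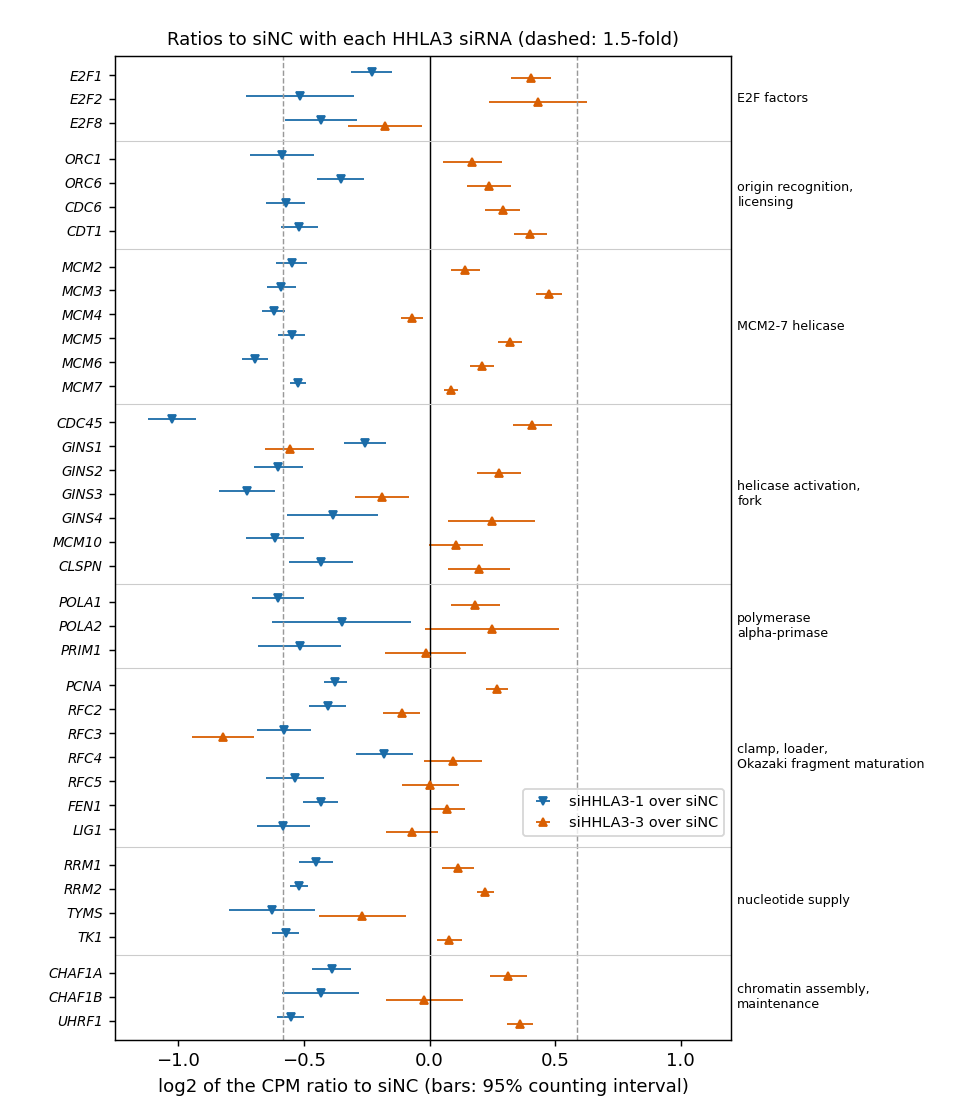
Log2 of the CPM ratio to siNC for each member with siHHLA3-1 (blue) and siHHLA3-3 (orange), with 95% counting intervals as bars and 1.5-fold as dashed lines. Blue points lie below 0 in 37 genes, where 51.8% of all genes do, and orange points above 0 in 27, where 48.5% do. The orange points of GINS1 and RFC3 lie below their blue ones.

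Among genes of helicase activation were CDC45, with the lowest ratio to siNC of the 37 with siHHLA3-1, and GINS1, which went against the common order. CDC45, which locks onto the MCM ring to form the active helicase, had 39.7 CPM with siHHLA3-1, 107 CPM with siHHLA3-3 and 80.6 CPM with siNC. It was 2.03-fold lower (95% counting interval 1.91 to 2.17) with siHHLA3-1 and 1.33-fold higher (95% counting interval 1.26 to 1.40) with siHHLA3-3, each against siNC. The GINS complex, which joins the helicase with CDC45, was not of one order. GINS2 had 42.4 CPM with siHHLA3-1, 77.9 CPM with siHHLA3-3 and 64.4 CPM with siNC, and GINS4 had 13.1 CPM with siHHLA3-1, 20.3 CPM with siHHLA3-3 and 17.1 CPM with siNC. Both followed the common order, with siHHLA3-1 lowest and siHHLA3-3 highest. GINS3 had 30.98 CPM with siHHLA3-1, 44.96 CPM with siHHLA3-3 and 51.3 CPM with siNC, below siNC with both siRNAs. GINS1 had 61.1 CPM with siHHLA3-1, 49.7 CPM with siHHLA3-3 and 73.1 CPM with siNC. It was lowest with siHHLA3-3, where it was 1.47-fold lower (95% counting interval 1.37 to 1.57) than with siNC. In TPM the ratio of GINS1 to GINS2 was 1.12 with siHHLA3-1, 0.497 with siHHLA3-3 and 0.885 with siNC. MCM10, a scaffold that helps the helicase start, had 30.4 CPM with siHHLA3-1, 50.03 CPM with siHHLA3-3 and 46.5 CPM with siNC. CLSPN, claspin, which paces the fork and passes on checkpoint signals, had 25.7 CPM with siHHLA3-1, 39.8 CPM with siHHLA3-3 and 34.7 CPM with siNC. Both were below siNC with siHHLA3-1 and slightly above it with siHHLA3-3, the counting interval of MCM10 with siHHLA3-3 reaching 1.

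Polymerase alpha-primase lays the RNA and DNA primers from which both strands are extended. Its catalytic subunit POLA1 had 36.2 CPM with siHHLA3-1, 62.3 CPM with siHHLA3-3 and 54.9 CPM with siNC. Its accessory subunit POLA2, the member with the fewest reads, had 5.80 CPM with siHHLA3-1, 8.78 CPM with siHHLA3-3 and 7.39 CPM with siNC. The primase PRIM1 had 15.1 CPM with siHHLA3-1, 21.3 CPM with siHHLA3-3 and 21.5 CPM with siNC. All 3 were lowest with siHHLA3-1, as 35.5% of all genes were. POLA1 was 1.52-fold lower (95% counting interval 1.41 to 1.63) with siHHLA3-1 than with siNC. With siHHLA3-3 the counting intervals of POLA2 and PRIM1 included 1, and PRIM1, at −0.02 on the log2 scale, was above siNC under library totals, TPM and FPKM.

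PCNA, the ring that holds polymerases on DNA, followed the common order, and the clamp loader that opens it was uneven. PCNA had 215 CPM with siHHLA3-1, 336 CPM with siHHLA3-3 and 279 CPM with siNC and was the most abundant member per transcript length, at 546 TPM with siHHLA3-1, 856 TPM with siHHLA3-3 and 680.2 TPM with siNC. Of the loader subunits, RFC2 had 77.5 CPM with siHHLA3-1, 94.9 CPM with siHHLA3-3 and 103 CPM with siNC. RFC4 had 35.2 CPM with siHHLA3-1, 42.5 CPM with siHHLA3-3 and 39.8 CPM with siNC. RFC5 had 30.02 CPM with siHHLA3-1, 43.6 CPM with siHHLA3-3 and 43.5 CPM with siNC. RFC2 lay below siNC with both siRNAs, while the counting intervals of RFC4 and RFC5 with siHHLA3-3 included 1. RFC3 had 35.4 CPM with siHHLA3-1, 29.9 CPM with siHHLA3-3 and 52.9 CPM with siNC. It was 1.49-fold lower (95% counting interval 1.39 to 1.61) with siHHLA3-1 and 1.77-fold lower (95% counting interval 1.62 to 1.92) with siHHLA3-3, each against siNC, and is, with GINS1, the member lowest with siHHLA3-3. In TPM the ratio of RFC3 to RFC5 was 1.34 with siHHLA3-1, 0.781 with siHHLA3-3 and 1.38 with siNC. The enzymes that finish the lagging strand were the nuclease FEN1 and the ligase LIG1. FEN1 had 84.96 CPM with siHHLA3-1, 121 CPM with siHHLA3-3 and 115 CPM with siNC, and LIG1 had 35.4 CPM with siHHLA3-1, 50.5 CPM with siHHLA3-3 and 52.96 CPM with siNC. Both were below siNC with siHHLA3-1, at −0.43 (FEN1) and −0.57 (LIG1) on the log2 scale, and near it with siHHLA3-3. RFC5 and FEN1 share 186 and 166 exon bases with WSB2 and TMEM258 on the opposite strand. PRIM1 shares 132 with HSD17B6 on the opposite strand and 33 with NACA on the same strand. NACA had 270 CPM with siHHLA3-1, 314 CPM with siHHLA3-3 and 317 CPM with siNC. The counts of RFC5, FEN1 and PRIM1 carry that uncertainty.

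Genes of deoxynucleotide supply were below siNC with siHHLA3-1 in 4 of 4 cases, where 51.8% of all genes were. RRM1 and RRM2 are the large and small subunits of ribonucleotide reductase, which makes deoxynucleotides. RRM1 had 91.04 CPM with siHHLA3-1, 135 CPM with siHHLA3-3 and 125 CPM with siNC, and RRM2 had 317 CPM with siHHLA3-1, 530.1 CPM with siHHLA3-3 and 454 CPM with siNC. TK1, the thymidine kinase of cycling cells, had 143 CPM with siHHLA3-1, 224 CPM with siHHLA3-3 and 213 CPM with siNC. These 3 were slightly above siNC with siHHLA3-3, at 0.11 (RRM1), 0.22 (RRM2) and 0.08 (TK1) on the log2 scale. TYMS, thymidylate synthase, had 13.4 CPM with siHHLA3-1, 17.2 CPM with siHHLA3-3 and 20.7 CPM with siNC, below siNC with both siRNAs. TYMS shares 967 exon bases with ENOSF1 on the opposite strand, which had 49.5 CPM with siHHLA3-1, 51.1 CPM with siHHLA3-3 and 52.2 CPM with siNC, so the TYMS values are uncertain.

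Of the factors that rebuild chromatin, CHAF1A and CHAF1B are subunits of CAF-1, which deposits histones behind PCNA, and UHRF1 brings the maintenance DNA methyltransferase to new DNA. CHAF1A had 70.1 CPM with siHHLA3-1, 114 CPM with siHHLA3-3 and 91.8 CPM with siNC. CHAF1B had 17.5 CPM with siHHLA3-1, 23.3 CPM with siHHLA3-3 and 23.7 CPM with siNC. UHRF1 had 131 CPM with siHHLA3-1, 246 CPM with siHHLA3-3 and 192 CPM with siNC. Each was lowest with siHHLA3-1, as 35.5% of all genes were. CHAF1A and UHRF1 were above siNC with siHHLA3-3, at 0.31 (CHAF1A) and 0.36 (UHRF1) on the log2 scale. The counting interval of CHAF1B with siHHLA3-3 included 1, and its sign turned under library totals, TPM and FPKM. CHAF1B shares 89 exon bases with MORC3 on the same strand, so its values are uncertain. MORC3 had 28.5 CPM with siHHLA3-1, 36.8 CPM with siHHLA3-3 and 30.3 CPM with siNC.

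Set against each other, without siNC, the libraries differed in the same direction for most members. With siHHLA3-3 over siHHLA3-1, 35 members were higher, where 50.4% of genes were, and 2 (GINS1 and RFC3) lower, where 49.6% were. The median log2 ratio was 0.61 against 0.00 for all genes, and the range ran from −0.29 for GINS1 to 1.41 for CDC45. At least 1.5-fold higher were 21 members, where 4.4% of genes were, and at least 2-fold higher were CDC45 and MCM3, where 0.757% of genes were. CDC45 was 2.70-fold higher (95% counting interval 2.53 to 2.88) and MCM3 2.09-fold higher (95% counting interval 2.01 to 2.17) with siHHLA3-3 than with siHHLA3-1. The counting interval lay above 1 for 35 members, where it did so for 31.6% of genes, and below 1 for GINS1 and RFC3, where it did so for 31.1%. None was at least 1.5-fold lower, where 7.82% of genes were. The lowest of the 3 levels was with siHHLA3-1 in 35 members, as in 35.5% of genes, and with siHHLA3-3 in 2, as in 34.1%. The highest was with siHHLA3-3 in 27 members, as in 33% of genes, and with siNC in 10, as in 33.6%. HHLA3 itself, from 20 counts with siHHLA3-3 and 55 with siHHLA3-1, was 0.474-fold (95% counting interval 0.269 to 0.804) with siHHLA3-3 over siHHLA3-1. How its level relates to those of the members was not tested.

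Other genes of the same pathway were read from 6 lists with 66 genes that passed the filter. Of these 66, 49 were below siNC with siHHLA3-1, where 51.8% of all genes were, and 7 were at least 1.5-fold lower, where 3.34% were. Among the 7 were DBF4, DSCC1 and RB1. With siHHLA3-3, 36 of 66 were above siNC, which is close to the 48.5% of all genes. Their median log2 ratio was −0.24 with siHHLA3-1 and 0.02 with siHHLA3-3. Of 14 other licensing and firing genes the median was −0.29 with siHHLA3-1 and 0.00 with siHHLA3-3. DBF4, the activator of the kinase that fires origins, had 61.7 CPM with siHHLA3-1, 105 CPM with siHHLA3-3 and 113 CPM with siNC. CDC25A, the phosphatase that activates CDK2, had 33.5 CPM with siHHLA3-1, 62.7 CPM with siHHLA3-3 and 29.4 CPM with siNC and was the 1 gene of the 66 at least 1.5-fold above siNC with siHHLA3-3, where 3.65% of all genes were. At least 1.5-fold below siNC with siHHLA3-3 were 3 of the 66 (ORC3, ORC5 and RBL2), where 5.57% of all genes were, so neither count exceeds the share over all genes. ORC3, a subunit of the origin recognition complex, had 21.5 CPM with siHHLA3-1, 14.6 CPM with siHHLA3-3 and 25.5 CPM with siNC.

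Of 22 other polymerase, loader and fork genes the median log2 ratio was −0.34 with siHHLA3-1 and 0.00 with siHHLA3-3. DSCC1, of the alternative clamp loader that acts in sister chromatid cohesion, had 19.7 CPM with siHHLA3-1, 28.7 CPM with siHHLA3-3 and 38.3 CPM with siNC. POLE3, a small subunit of polymerase epsilon, had 63.4 CPM with siHHLA3-1, 119 CPM with siHHLA3-3 and 92.02 CPM with siNC, and WDHD1, which ties polymerase alpha to the helicase, had 44.8 CPM with siHHLA3-1, 49.95 CPM with siHHLA3-3 and 63.8 CPM with siNC. POLE3 took the members' common order, and DSCC1 and WDHD1 were highest with siNC. Of 9 other nucleotide genes the median was −0.37 with siHHLA3-1 and 0.09 with siHHLA3-3. DTYMK, thymidylate kinase, had 52.5 CPM with siHHLA3-1, 61.5 CPM with siHHLA3-3 and 74.3 CPM with siNC, and DCK, deoxycytidine kinase, had 19.3 CPM with siHHLA3-1, 18.4 CPM with siHHLA3-3 and 24.7 CPM with siNC, both highest with siNC.

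Genes that control G1 had no common order. The median log2 ratio of 10 other E2F and pocket protein genes was 0.05 with siHHLA3-1 and 0.10 with siHHLA3-3, and that of 5 genes of cyclin E and CDK2 was 0.09 with siHHLA3-1 and −0.07 with siHHLA3-3. RB1, the retinoblastoma protein that restrains activator E2Fs, had 27.4 CPM with siHHLA3-1, 45.4 CPM with siHHLA3-3 and 48.3 CPM with siNC. RBL1, p107, had 47.00 CPM with siHHLA3-1, 84.8 CPM with siHHLA3-3 and 60.7 CPM with siNC. RBL2, p130, the pocket protein of resting cells, had 64.6 CPM with siHHLA3-1, 26.8 CPM with siHHLA3-3 and 56.3 CPM with siNC and was 2.10-fold lower (95% counting interval 1.93 to 2.29) with siHHLA3-3 than with siNC. The pocket protein genes thus each had another order, RB1 being lowest with siHHLA3-1 and RBL2 lowest with siHHLA3-3. CCNE1, cyclin E1, had 24.8 CPM with siHHLA3-1, 15.02 CPM with siHHLA3-3 and 18.5 CPM with siNC. CDKN1A, the inhibitor p21, had 167 CPM with siHHLA3-1, 208 CPM with siHHLA3-3 and 156 CPM with siNC, and CDK2 had 59.98 CPM with siHHLA3-1, 84.3 CPM with siHHLA3-3 and 66.5 CPM with siNC. CDKN1A and CDK2 were highest with siHHLA3-3 and CCNE1 with siHHLA3-1. Of 6 further chromatin genes the median was −0.28 with siHHLA3-1 and 0.18 with siHHLA3-3. HELLS, a remodeller that aids DNA methylation, had 51.2 CPM with siHHLA3-1, 80.1 CPM with siHHLA3-3 and 69.5 CPM with siNC. The histone chaperone ASF1B had 62.1 CPM with siHHLA3-1, 94.2 CPM with siHHLA3-3 and 77.6 CPM with siNC. Its paralogue ASF1A had 19.2 CPM with siHHLA3-1, 16.4 CPM with siHHLA3-3 and 22.2 CPM with siNC and was lowest with siHHLA3-3, where HELLS and ASF1B were highest.

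**Figure D4:**
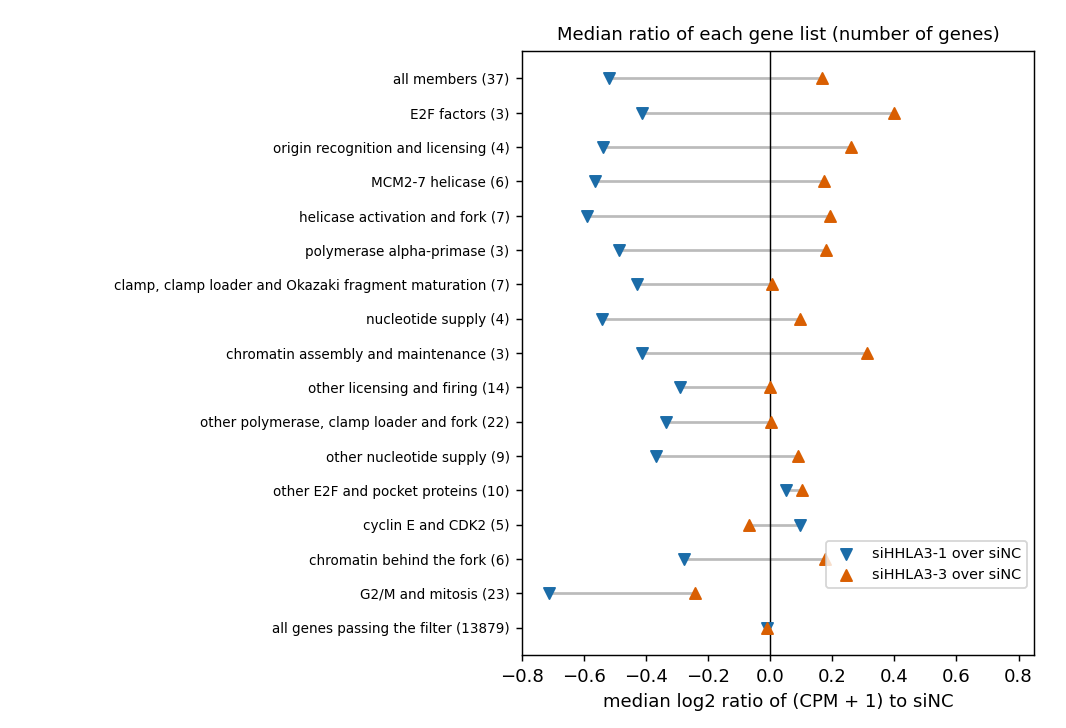
Median log2 ratio of (CPM + 1) over siNC for each list of genes with siHHLA3-1 (blue) and siHHLA3-3 (orange), with the number of genes in parentheses. The members stand at −0.52 with siHHLA3-1 and 0.17 with siHHLA3-3, the G2/M and mitosis list at −0.72 with siHHLA3-1 and −0.24 with siHHLA3-3, and all genes close to 0.

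Genes of G2 and mitosis, which act later in the cycle, were lower than siNC with both siRNAs, unlike most members. NUSAP1 and PRC1 were also chosen for this list but were not among the rows used. Of the 23 such genes listed, 23 were below siNC with siHHLA3-1, where 51.8% of all genes were, and 21 with siHHLA3-3, where 51.5% were. The median log2 ratio was −0.72 with siHHLA3-1 and −0.24 with siHHLA3-3. With siHHLA3-3 over siHHLA3-1 their median was 0.46, from 0.06 to 0.95, so each was higher with siHHLA3-3, as most members were. CDC20, which activates the anaphase-promoting complex, had 134 CPM with siHHLA3-1, 182 CPM with siHHLA3-3 and 267 CPM with siNC. TPX2, a spindle assembly factor, had 264 CPM with siHHLA3-1, 295 CPM with siHHLA3-3 and 474 CPM with siNC, and the mitotic kinesin KIF20A had 83.4 CPM with siHHLA3-1, 102 CPM with siHHLA3-3 and 161 CPM with siNC. In these 3 genes siNC was highest and siHHLA3-1 lowest. With 1 library per group the difference between the lists was not tested.

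Sites that an siRNA could bind through its seed were looked up, because a gene can be lowered by an siRNA directly. The siRNA sequences are not given in the sources used here; CAGAATG and GTGAACT are 7-mers that earlier work picked from these same ratios, CAGAATG from siHHLA3-1 and GTGAACT from siHHLA3-3, so they are no independent evidence. In 3′ UTRs of GENCODE release 29, CAGAATG was in 4 of 37 members (10.8%) against 17.9% of 11947 genes, and GTGAACT in 1 (2.70%) against 12.2%. The 4 are shown with the 7-mer in capitals so that the letters around it can be read.
CDC45, chromosome 22, CAGAATG: tttgattcttcCAGAATGaccttcttattt
GINS3, chromosome 16, CAGAATG: ccggaagaacaCAGAATGgctcctcacaga
RRM2, chromosome 2, CAGAATG: aatattaatttCAGAATGaaacataatttt
RFC3, chromosome 13, CAGAATG: tgaagaaaattCAGAATGaagttctggaga
RFC3, chromosome 13, GTGAACT: ataacttctctGTGAACTattaatcatcct
RFC3 carries both 7-mers, each in 1 of its 2 annotated transcripts searched, and CDC45, GINS3 and RRM2 carry CAGAATG. GINS1, which with RFC3 was lowest with siHHLA3-3, carries neither. Among the related genes named above, RBL2 and ORC5 carry GTGAACT, and RB1, POLE3 and ASF1A carry CAGAATG. These genes were named for the size of their ratios. The other GTGAACT carriers in the related lists were E2F3, DUT, TK2, ATAD5 and DNA2. Their log2 ratios to siNC with siHHLA3-3 ran from −0.27 (DNA2) to 0.22 (TK2). The other CAGAATG carriers in those lists ran from −0.68 (RPA1) to 0.29 (CDKN1B) with siHHLA3-1. Both 7-mers are rarer among the members than among all genes searched. The 4 carriers had a median log2 ratio to siNC of −0.64 with siHHLA3-1 and 0.02 with siHHLA3-3. The 33 members with neither had −0.51 with siHHLA3-1 and 0.17 with siHHLA3-3. With siHHLA3-1 the ranges were −1.01 to −0.52 for carriers and −0.69 to −0.18 for the others. With siHHLA3-3 they were −0.80 to 0.40 and −0.55 to 0.47. The part of such sites in the members' ratios was not tested.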

How the data were processed

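The authors' table gives 4 values for each of 16662 genes in each library. Its deposited counts are raw whole-number counts, and its deposited CPM are those counts scaled to the library total, per the file headers. FPKM and TPM were deposited too and are also scaled by gene length. The submitters' processing notes name build hg19 and the aligners HISAT2, HISAT, TopHat2 and Bowtie2. Which program counted reads, with what annotation and strand setting, was not given in the sources used here. Genes sharing exon bases with another gene, on either strand, are uncertain for that reason.

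Library totals were recovered from counts and CPM, and TMM factors from edgeR 4.0.16 (R 4.3.3) were 1.01 for siHHLA3-1, 1.01 for siHHLA3-3 and 0.978 for siNC. A gene was kept when its mean reached 1 CPM. Adding 1 CPM before the log2 ratio understates differences of low genes. Calls were 1.5-fold and 2-fold. Intervals are exact 95% Poisson for levels and exact 95% binomial for shares and ratios. The code was tested on simulated data, in Python 3.11.15 with numpy 2.4.6, pandas 2.3.3, scipy 1.17.1 and matplotlib 3.10.9.

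Each ratio was recomputed with size factors from DESeq2 1.42.0, library totals, 0.1 CPM added, no filter, a filter at 5 CPM, TPM, FPKM, calls that also needed the counting interval to exclude 1, and the 7-mer carriers left out. Members, lists and 7-mers were chosen with earlier results of these data known. The named genes are HHLA3, the 37 members, and of each other list the 3 with the largest mean absolute log2 ratio against siNC. Others, such as overlapping genes, were named after their values were seen. A gene that the rule names is not reported here. Promoters came from RefSeq (GRCh38.p14) with those on chr8 left out, and no coordinate was converted between builds. Protein motifs were not analysed here.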

Additional observations from a re-analysis of the deposited data

Results flagged for a closer look

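The members' medians lay on opposite sides of siNC. The median log2 ratio over the 37 genes was −0.52 with siHHLA3-1 and 0.17 with siHHLA3-3, each against the same siNC library. The list was proposed with this opposite direction already known, so its return here is no independent evidence. With 1 library per group this difference between the siRNAs was not tested.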

How the results depend on the processing

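Over 9 alternative settings the members' median log2 ratio stayed between −0.52 and −0.45 with siHHLA3-1 over siNC, between 0.17 and 0.23 with siHHLA3-3 over siNC, and between 0.59 and 0.63 with siHHLA3-3 over siHHLA3-1. The number at least 1.5-fold lower with siHHLA3-1, 9 with TMM factors, was 5 with DESeq2 size factors and 3 with library totals, TPM or FPKM. The number at least 2-fold lower, 1 with TMM factors, was 0 with DESeq2 size factors, library totals, TPM or FPKM, and 0 without the carriers of either 7-mer, which leave out CDC45. Without the carriers the number at least 2-fold higher with siHHLA3-3 than with siHHLA3-1 was 1 in place of 2, and the number at least 1.5-fold lower with siHHLA3-3 than with siNC was 0 in place of 1, since RFC3 is left out. PRIM1 and CHAF1B, near 0 with siHHLA3-3, turned sign under library totals, TPM and FPKM. Depth limits POLA2 most, with 206 counts in its lowest library. No paired analysis was possible because each group had 1 library.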

Other observations

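Some listed genes share exon bases with a member and were not themselves members. FADS2, a fatty acid desaturase that shares 49 exon bases with FEN1 on the same strand, had 22.2 CPM with siHHLA3-1, 45.1 CPM with siHHLA3-3 and 35.4 CPM with siNC, the order that most members had. TPRA1, which shares 45 exon bases with MCM2 on the opposite strand, had 77.6 CPM with siHHLA3-1, 99.3 CPM with siHHLA3-3 and 55.7 CPM with siNC, and so was above siNC with both siRNAs where MCM2 was below it with siHHLA3-1. WSB2, which shares 186 exon bases with RFC5 on the opposite strand, had 55.00 CPM with siHHLA3-1, 48.0 CPM with siHHLA3-3 and 65.9 CPM with siNC. These genes were named after their values were seen.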
